A study of Rattus norvegicus with 4 samples.

Results

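Mitochondrial ribosomal protein genes were described in NR8383, a macrophage line established from the lung lavage of a normal rat, after exposure to an iron oxide particle. The genes were found by symbol: array probes were given rat symbols through their RefSeq accession, and symbols that start with Mrpl or Mrps followed by a digit were kept. The RefSeq table spells 3 of these symbols in lower case (mrpl9, mrpl11 and mrpl24), and they were kept and are written here like the others. This gave 71 genes of 16581 named genes on the array, 45 with a large subunit symbol (Mrpl) and 26 with a small subunit symbol (Mrps). The rule itself uses no measured value, although it was set with earlier results of these data known. All 4 cultures had been exposed to Fe2O3 particles named NRCWE018 at a dose of 2 µg/mL, and the exposure lasted 4 h. The cells had gone through 20 passages, and RNA of each culture was measured on 1 single-colour array. The study also has a group of 4 control cultures without particles, which was not analysed here, so no value below is an effect of the particle. The cells come from 1 line, grown partly attached and partly floating. In such bulk RNA, fewer cells that express a gene and less of its RNA per cell cannot be told apart.

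The mitochondrial ribosome translates the few messenger RNAs encoded by mitochondrial DNA, all of which specify core subunits of the respiratory chain and the ATP synthase. Its ribosomal RNAs are encoded in the mitochondrion, whereas every one of its proteins is encoded in the nucleus, made in the cytosol and imported. The small subunit binds the messenger RNA and decodes it, and the large subunit forms the peptide bond and releases the nascent chain at the inner membrane. Some of the proteins have bacterial homologues, and others occur only in mitochondria.

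The promoters of 7 members are shown because they carry, or in 1 case lack, the sequence features described next and belong to genes to which the array values return: the head-to-head partner of Mrps11 (Mrpl46), members whose signal was lowest on the array of replicate 4 (Mrpl32, Mrps7, Mrpl44 and, with none of the motifs, Mrpl11), the member with 3 different motifs (Mrps18b) and a member of small spread (Mrpl37). Each is the RefSeq window of 300 bases around the annotated start, ending 50 bases past it, on GRCr8 and written 5′ to 3′ along the gene. Capitals mark matches on either strand to the letters of the NRF1 site (GCGCA with GCGC after any 1 base), CCGGAAG (an ETS family site, as bound by GABP) and AAGATGGC (the core of the YY1 site). Mrpl46 lies at chr1:142116981-142117280 (minus strand), Mrpl32 at chr17:55260401-55260700 (plus), Mrps7 at chr10:101342392-101342691 (plus), Mrpl44 at chr9:88554800-88555099 (plus), Mrps18b at chr20:2842756-2843055 (plus), Mrpl37 at chr5:127074918-127075217 (minus) and Mrpl11 at chr1:211693557-211693856 (plus).
Mrpl46: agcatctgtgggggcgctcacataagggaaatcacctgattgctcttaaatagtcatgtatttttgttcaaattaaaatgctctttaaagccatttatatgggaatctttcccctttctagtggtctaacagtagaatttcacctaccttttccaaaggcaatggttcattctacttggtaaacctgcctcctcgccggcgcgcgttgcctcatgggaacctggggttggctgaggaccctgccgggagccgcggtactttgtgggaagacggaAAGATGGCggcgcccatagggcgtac
Mrpl32: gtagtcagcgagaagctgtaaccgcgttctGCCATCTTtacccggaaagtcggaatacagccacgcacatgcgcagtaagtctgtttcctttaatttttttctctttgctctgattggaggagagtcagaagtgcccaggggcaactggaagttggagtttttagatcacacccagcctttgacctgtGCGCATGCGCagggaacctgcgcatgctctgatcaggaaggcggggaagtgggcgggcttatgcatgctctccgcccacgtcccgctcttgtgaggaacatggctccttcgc
Mrps7: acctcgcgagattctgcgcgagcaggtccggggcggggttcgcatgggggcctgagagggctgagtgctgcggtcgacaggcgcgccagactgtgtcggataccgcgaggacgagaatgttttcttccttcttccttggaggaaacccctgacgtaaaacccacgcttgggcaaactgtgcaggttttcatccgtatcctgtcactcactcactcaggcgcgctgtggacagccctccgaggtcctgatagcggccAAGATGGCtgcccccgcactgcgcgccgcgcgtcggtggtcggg
Mrpl44: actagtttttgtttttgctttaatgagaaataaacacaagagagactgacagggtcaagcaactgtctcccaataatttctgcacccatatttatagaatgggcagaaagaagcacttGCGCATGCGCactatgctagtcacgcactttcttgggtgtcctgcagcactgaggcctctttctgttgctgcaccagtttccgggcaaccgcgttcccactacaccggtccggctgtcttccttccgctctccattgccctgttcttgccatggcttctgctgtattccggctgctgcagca
Mrps18b: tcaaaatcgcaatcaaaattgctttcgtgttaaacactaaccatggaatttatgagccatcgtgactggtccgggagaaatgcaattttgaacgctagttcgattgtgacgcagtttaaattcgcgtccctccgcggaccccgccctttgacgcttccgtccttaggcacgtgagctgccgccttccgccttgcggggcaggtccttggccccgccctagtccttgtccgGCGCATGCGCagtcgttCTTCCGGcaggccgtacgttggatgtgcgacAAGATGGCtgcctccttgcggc
Mrpl37: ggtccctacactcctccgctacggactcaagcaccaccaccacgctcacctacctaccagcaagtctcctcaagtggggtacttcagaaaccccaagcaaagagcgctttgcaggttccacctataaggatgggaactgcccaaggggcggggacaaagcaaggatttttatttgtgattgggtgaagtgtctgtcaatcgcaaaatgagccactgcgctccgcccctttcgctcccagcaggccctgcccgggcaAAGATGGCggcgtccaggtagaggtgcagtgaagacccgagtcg
Mrpl11: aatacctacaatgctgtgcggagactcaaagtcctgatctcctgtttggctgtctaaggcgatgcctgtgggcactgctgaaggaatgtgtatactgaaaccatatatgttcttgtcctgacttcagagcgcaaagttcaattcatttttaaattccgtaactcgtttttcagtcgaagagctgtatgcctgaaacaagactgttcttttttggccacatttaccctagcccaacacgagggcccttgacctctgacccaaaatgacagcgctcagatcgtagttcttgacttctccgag

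NRF1, GABP and YY1 are transcription factors known for binding promoters of nuclear genes for mitochondrial proteins. A promoter entry was found for 58 of the 71 members, and 2 of these had several start sites, giving 60 windows. In these, the YY1 letters were present in 13 windows (21.7%), against 3.17% of all 33469 promoter windows of the table and 5.98% of the 7395 windows of named genes above background on all 4 arrays. The ETS letters were present in 19 member windows (31.7%), against 8.75% of all windows and 20.4% of those of genes above background. For the NRF1 letters the count was 10 member windows (16.7%), against 4.25% and 10.8%. At least 1 of these motifs was in the windows of 32 members, and at least 2 different ones were in those of 9 members. The windows of Mrpl and Mrps genes held the YY1 letters in 20.5% and 23.8%, the ETS letters in 30.8% and 33.3%, and the NRF1 letters in 20.5% and 9.52% (8 of 39 and 2 of 21 windows). Any of the 3 motifs was in 59.0% of Mrpl and 42.9% of Mrps windows, and these shares were not tested against each other.

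The YY1 matches of the members lay close to the start. Of the 13 matches, 10 began at or after the annotated start site, where 41.7% of the 1102 YY1 matches in all windows did. The share among windows of genes above background was not counted, so the position may not be particular to the members. In Mrps7 and Mrpl37 the match began 6 bases after the start, in Mrpl46 24 bases and in Mrps18b 28 bases after it. In Mrpl32 the match lay on the opposite strand and began 220 bases before the start, and an NRF1 match began 62 bases before it. The E-box letters CACGTG were in 7 member windows (11.7%, against 6.42% of all windows and 9.45% of those of genes above background), and the letters TATAAA in 8 (13.3%, against 14.2% and 7.32%). Member windows had a median GC content of 55.8%, between 51.7% for all windows and 60.3% for those of genes above background. A match to such letters is a description of the sequence and does not show that a factor binds there.

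Several members share their promoter with a neighbour that runs the other way. In 15 members (25% of the windows) the window overlapped that of a head-to-head neighbour, against 9.3% of all windows and 15.6% of those of genes above background. In 1 such pair both genes are mitochondrial ribosomal, Mrpl46 of the large subunit and Mrps11 of the small subunit. The signal of Mrpl46 was 0.08, 0.20, 0.14 and 0.10 in replicates 1 to 4, and that of Mrps11 was 0.48, 0.74, 0.47 and 0.52, in log2 units relative to each array's 75th percentile, the scale of every level below. Both genes were highest in replicate 2, as were 35.2% of all members. The lowest value was in replicate 1 for Mrpl46 (0.08, with replicate 4 at 0.10). For Mrps11 it was in replicate 3 (0.47, with replicate 1 at 0.48). Gaps this small do not resolve whether the lowest cultures of the pair differed. Mrpl32 shares its window with Psma2, which encodes a subunit of the proteasome core. Psma2 was at 1.77, 2.07, 1.97 and 2.03, so it was lowest in replicate 1, whereas Mrpl32 was lowest in replicate 4. Mrpl27 shares its window with Eme1, which encodes a subunit of a DNA endonuclease. Eme1 was at -2.10, -1.91, -2.11 and -3.77, lowest in replicate 4, where Mrpl27 was highest. The 9 neighbours measured here that are not members were Tcp1, Eme1, Mitd1, Psma2, Hira, Ndufb5, Fau, Helq and Ptcd2. All 9 were above background on 4 of 4 arrays, where 50.5% of all named genes were.

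The 4 arrays were on 1 slide, so that culture and place on the slide cannot be told apart. Between 37.8% and 41.2% of probes were above background on each, no spot was saturated, and the 75th percentile of the signal lay between 756.5 in replicate 4 and 1082 in replicate 3. Replicate 4 also had the largest share of spots marked as outliers, 1.62% against 1.13% to 1.21%. Of 10 macrophage markers 8 exceeded background on 4 of 4 arrays, including Cd68, Csf1r, Lyz2 and Spi1, while Adgre1 and Marco were above it on none. None of 5 lung epithelium markers and none of 3 measured T and B cell markers was above background, and of 4 fibroblast markers only Dcn was.

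All 71 mitochondrial ribosomal protein genes were well above background on all 4 arrays, where 50.5% of all named genes were. This held for 45 of 45 large subunit genes and for 26 of 26 small subunit genes. Each gene stands by its best probe, which raises the share for genes with several probes. Counted by probe, 84 of the 89 probes of the members (94.4%) were above background on all 4 arrays, against 49% of all probes of named genes. The weakest chosen probe on any array was that of Mrps14, and its signal was still 6.61 times the lowest signal called above background on the same array. Fewer members are described than the RefSeq table names: Mrpl28, Mrpl33, Mrpl39, Mrpl43, Mrps6, Mrps10 and Mrps28, together with the copies Mrpl41l1, Mrpl42l1 and Mrps36l1, matched no probe by accession and were not analysed here.

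Large subunit proteins with a bacterial homologue were represented by 27 genes. Mrpl12, the stalk protein that recruits translation factors, lay at 4.96, 4.98, 4.78 and 4.84 in replicates 1 to 4 (4.89 ± 0.10, SD, n = 4 arrays, as for every ± value). It was spotted 10 times on each array, and its repeat spots had a median SD of 0.0425 within an array, which holds the noise of single spots only. Mrpl10, which anchors the stalk, was at 3.82, 3.68, 3.65 and 4.01, highest in replicate 4. Mrpl11, the protein at the base of the stalk, was at 3.35, 3.61, 3.30 and 2.34. Mrpl11 was thus lowest in replicate 4, where Mrpl10 was highest, and both Mrpl10 and Mrpl12 were lowest in replicate 3.

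Other core proteins of the large subunit differed in their spread. Mrpl24, whose bacterial homologue starts the assembly of the subunit, was at 2.66, 2.65, 2.67 and 2.69, the smallest spread of any member (SD 0.0176). Mrpl9 was at 3.37, 3.57, 3.33 and 3.22, lowest in replicate 4. Mrpl3, a core protein near the peptidyl transferase centre, was at -0.09, -0.24, 0.04 and -0.10. Mrpl27, whose bacterial homologue reaches towards that centre, was at 3.91, 3.97, 3.93 and 4.11. Mrpl3 and Mrpl27 stayed within 0.28 log2 units over the cultures. Mrpl4 was at 1.71, 1.91, 1.73 and 1.94 and Mrpl34 at 2.40, 2.29, 2.10 and 2.27. Mrpl1, the protein of the mobile L1 stalk beside the exit site for transfer RNA, was at 0.35, 0.65, 0.74 and 0.68, lowest in replicate 1.

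Of the large subunit proteins listed as mitochondria-specific, 18 genes were measured. Mrpl45, which holds the ribosome at the inner membrane near the exit tunnel, was at 3.63, 3.76, 3.70 and 3.74. Mrpl58, a peptidyl-tRNA hydrolase built into the ribosome that can release stalled chains, was at 3.70, 3.90, 3.74 and 3.79. Both had an SD under 0.1 between arrays. Mrpl41 was at 2.94, 3.06, 3.01 and 3.11 and Mrpl57 at 3.46, 3.71, 3.53 and 3.61, each lowest in replicate 1. Mrpl44, which carries a ribonuclease III-like fold, was at 2.26, 2.28, 2.34 and 1.79, so that replicate 4 lay below the other cultures.

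Small subunit proteins with a bacterial homologue numbered 13. Mrps12, a protein of the decoding centre, was at 2.82, 2.79, 2.54 and 2.84, with replicate 3 apart below the others. Mrps7, which lies in the head of the subunit, was at 2.93, 2.83, 2.54 and 2.16, lowest in replicate 4. Mrps5 was at -0.78, -0.86, -1.02 and -0.95. Among genes linked to inherited defects of mitochondrial translation, Mrps14 (-2.26 ± 0.17) was highest in replicate 3 and Mrps16 (3.91 ± 0.11) in replicate 4. Mrps2 (-2.08 ± 0.09) was at -2.01 in both replicates 2 and 3, so its highest culture was not resolved.

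Small subunit proteins listed as mitochondria-specific, counting the paralogue Mrps18b described further on, were measured in 10 genes. Mrps22, also linked to inherited translation defects, was at -1.77, -1.52, -1.37 and -1.52. Mrps34 was at 2.43, 2.30, 2.15 and 2.51, and Mrps23 at 1.75, 1.77, 1.72 and 1.64. Mrps22 was lowest in replicate 1, Mrps34 in replicate 3 and Mrps23 in replicate 4, so these genes did not share an order over the cultures. Mrps27, a protein with pentatricopeptide repeats that binds RNA, lay at -1.15 ± 0.12, highest in replicate 2. Its other probe, also above background on all 4 arrays, was lowest in replicate 2, at -3.03, -3.09, -2.99 and -2.96. The highest culture of Mrps27 thus depended on the probe. Mrps35 was at 2.52, 2.52, 2.77 and 2.83.

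The symbol does not always give the subunit. Mrps18a, Mrps18b and Mrps18c are paralogues of the bacterial protein S18, of which Mrps18b and Mrps18c sit in the small subunit and Mrps18a in the large one. Mrps18a was at 2.84, 2.81, 2.63 and 2.89, Mrps18b at 0.00, 0.10, -0.01 and 0.15, and Mrps18c at 2.38, 2.75, 2.54 and 2.49. Mrps18a was highest in replicate 4 and lowest in replicate 3. Mrps18b was also highest in replicate 4, and its lowest culture was not resolved (-0.01 in replicate 3 and 0.00 in replicate 1). Mrps18c was highest in replicate 2 and lowest in replicate 1. Mrps30, the other protein with a small subunit symbol that sits in the large subunit, lay at 1.54 ± 0.13, highest in replicate 3. Moving both genes gave 47 large and 24 small subunit genes and did not change the median SD of either subunit, 0.123 and 0.116. Kgd4, formerly Mrps36 and now counted with the oxoglutarate dehydrogenase complex, is outside the symbol rule and was at 1.23, 1.36, 1.48 and 1.40.

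The members varied little between the 4 exposed cultures. The median SD between arrays was 0.121 for the 71 members, 0.123 for large and 0.116 for small subunit genes, against 0.178 for all 8376 named genes above background. In 60 of the 71 the SD was below the median of all genes, and the signal of the highest culture exceeded that of the lowest by a median of 1.20-fold, against 1.32-fold for all genes. The SD falls with signal level on these arrays. Relative to the SD that limma's trend gives for a gene of that level, the median was 0.736 for members, 0.736 for small and 0.734 for large subunit genes, 0.922 for all genes and 1.01 for 91 genes of the cytosolic ribosome. In related lists described further on, this median was 0.641 for the 5 mitochondrial ribosomal subunits under other symbols and 0.693 for translation factors. It was 0.762 for assembly and ribosomal RNA modification factors, 0.856 for mitochondrial DNA and transcription genes and 0.963 for nuclear regulators. A low median was thus not particular to the members. These medians describe 4 arrays and carry no test, because genes on the same arrays are not independent.

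**Figure D1:**
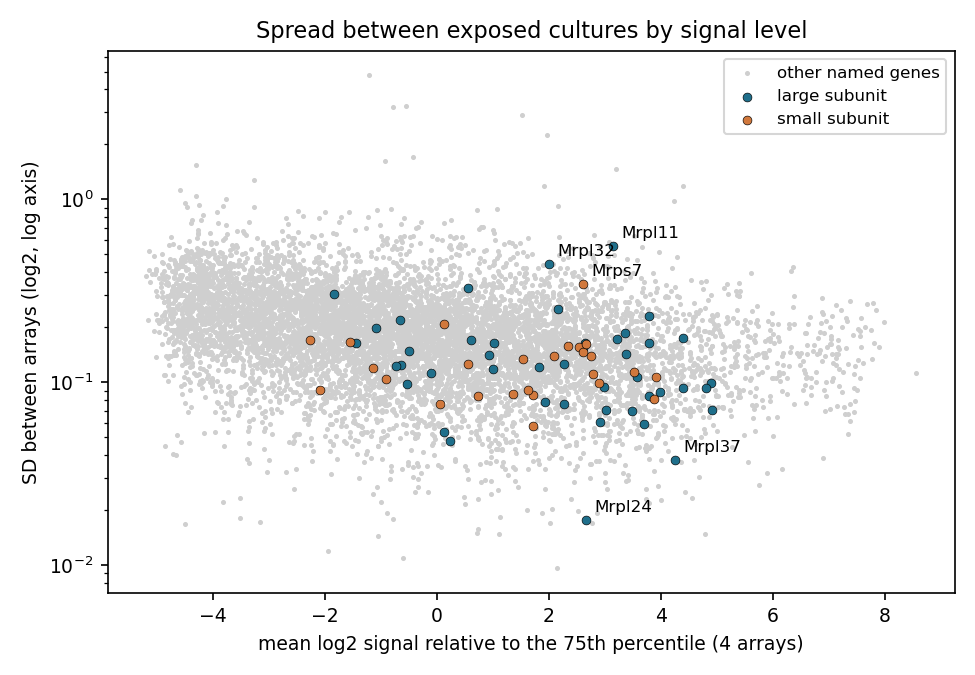
SD between the 4 arrays (log2, log axis) against mean signal (log2 relative to the 75th percentile) for the large subunit genes (blue), the small subunit genes (orange) and the other named genes above background (grey). Most members lie in the lower part of the cloud at their level, with SDs from 0.0176 for Mrpl24 to 0.556 for Mrpl11.

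Spread beyond that of genes of like level was tested gene by gene with limma, over all 8376 genes. None of the 71 members passed at an adjusted p of 0.05, where 0.191% of all genes did, and 3 members (4.23%) had an unadjusted p under 0.05, where 5.75% of all genes did. Those 3 were Mrpl11, Mrpl32 and Mrps7. With normexp background correction in place of the processed signal all 3 passed, Mrpl11 with a limma adjusted p of 0.00103, Mrpl32 with 0.0175 and Mrps7 with 0.0371, and 157 genes passed in all instead of 16. Over the other alternatives the limma adjusted p of Mrpl11 lay between 0.0631 and 0.986. Without replicate 4, no member had an unadjusted p under 0.05.

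The 5 members with the lowest p in that test were all lowest in replicate 4. Mrpl11 (3.15 ± 0.56) had the widest range of any member, its highest culture exceeding its lowest 2.41-fold, with a limma adjusted p of 0.177. Mrpl32, a protein whose maturation by a protease of the inner membrane is tied to ribosome assembly, was at 1.92, 2.34, 2.33 and 1.40 (2.00 ± 0.44). Its highest culture exceeded its lowest 1.92-fold, with a limma adjusted p of 0.412. Mrps7 followed (2.62 ± 0.34, limma adjusted p 0.685), with a range of 1.70-fold. Mrpl52 was at 0.71, 0.85, 0.60 and 0.10, and Mrpl44 had an SD of 0.25. In each of these 5 genes replicate 4 lay below the other cultures, and replicate 2 was the highest in 3 of them (Mrpl11, Mrpl32 and Mrpl52). Replicate 4 is also the array of lowest signal, and the part of the array's signal in this result was not tested.

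The members with the highest p were Mrpl24, Mrpl37, Mrpl21, Mrpl46 and Mrps23. Mrpl37, a mitochondria-specific protein of the large subunit, was at 4.29, 4.27, 4.28 and 4.21, a range of 1.06-fold. Mrpl21 was at 0.28, 0.23, 0.28 and 0.18. These genes had SDs from 0.0176 to 0.0577, and Mrpl37, Mrpl21 and Mrps23 were lowest in replicate 4 as well.

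**Figure D2:**
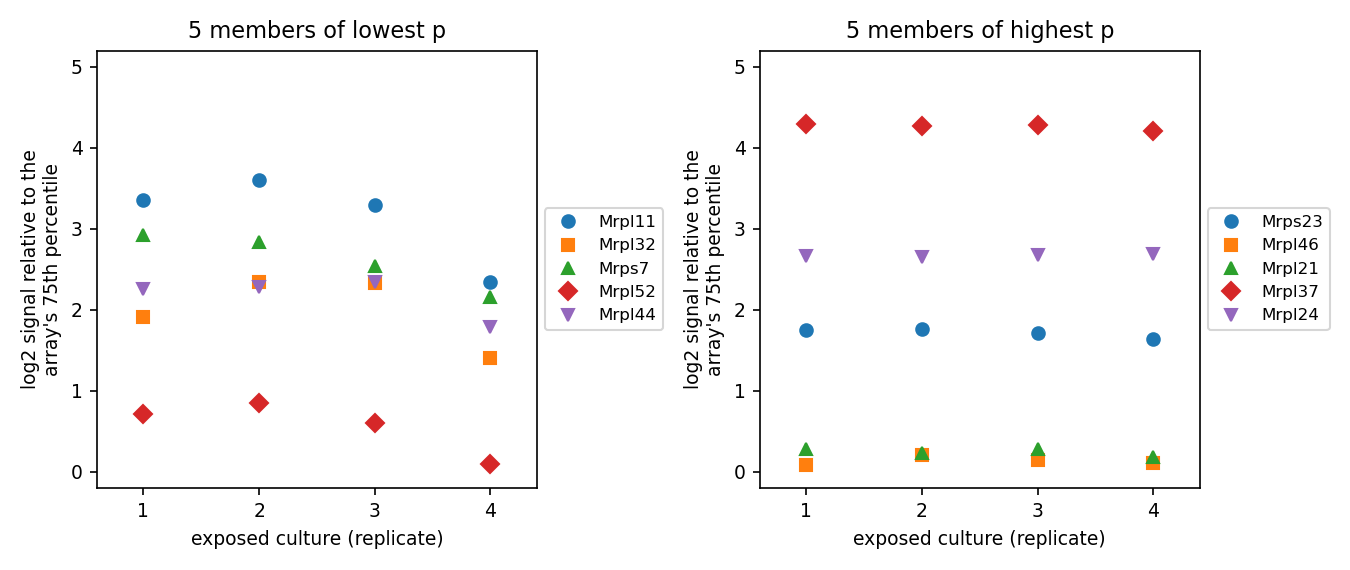
Signal (log2 relative to the array's 75th percentile) in each exposed culture for the 5 members of lowest p (left) and the 5 of highest p (right) in limma's test of excess spread. Mrpl11, Mrpl32, Mrps7, Mrpl52 and Mrpl44 lie lowest in replicate 4, where Mrpl11 is at 2.34, while Mrpl37 stays between 4.21 and 4.29.

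With the 75th percentile of all probes, both subunits were on average highest in replicate 2. The mean deviation of the 45 large subunit genes from their own means was -0.022, 0.070, -0.0047 and -0.0435 log2 units in replicates 1 to 4, and that of the 26 small subunit genes was -0.032, 0.041, -0.011 and 0.0027. The large minus small difference was 0.010, 0.029, 0.0065 and -0.046, and with medians in place of means that in replicate 4 was 0.016. The highest culture depended on the scaling: with the percentile of probes above background, small subunit genes were at 0.025 in replicate 2 and 0.046 in replicate 3, and all members at 0.044 and 0.050, and with quantile normalization small subunit genes were at 0.031 and 0.037. With the percentile of all probes, of the 71 members 25 were highest in replicate 2 (35.2%, against 23.6% of all genes) and 5 were lowest there (7.04%, against 20.4%).

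In replicate 4 the members and the cytosolic ribosomal protein genes lay on average on different sides of the mean of all genes. In that culture 22 of 71 members were highest (31%) and 20 were lowest (28.2%), against 36.3% and 15.4% of all genes, whereas 62 of 91 cytosolic ribosomal protein genes were highest and 5 lowest. The mean deviation in replicate 4 was -0.027 for the members, 0.056 for all genes and 0.138 for the cytosolic group. For the 5 mitochondrial ribosomal subunits under other symbols it was 0.083, above that of all genes. It was -0.0049 for assembly and ribosomal RNA modification factors, -0.054 for translation factors and -0.063 for mitochondrial DNA and transcription genes. For nuclear regulators of mitochondrial genes it was 0.049. A mean below that of all genes was thus not particular to the members. Relative to all genes, the members lay at -0.082 in replicate 4 and between -0.113 and -0.071 over the 11 settings tried with all arrays. The cytosolic group lay at 0.083 and between 0.009 and 0.090. Among these settings are the main one, the use of medians, and the move of genes between subunits, which cannot alter these values. The sign of the members' own mean in replicate 3 depended on the scaling: it was -0.007 with the 75th percentile of all probes and 0.050 with that of probes above background. No test of the difference between these groups was made, since they share the same 4 arrays.

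**Figure D3:**
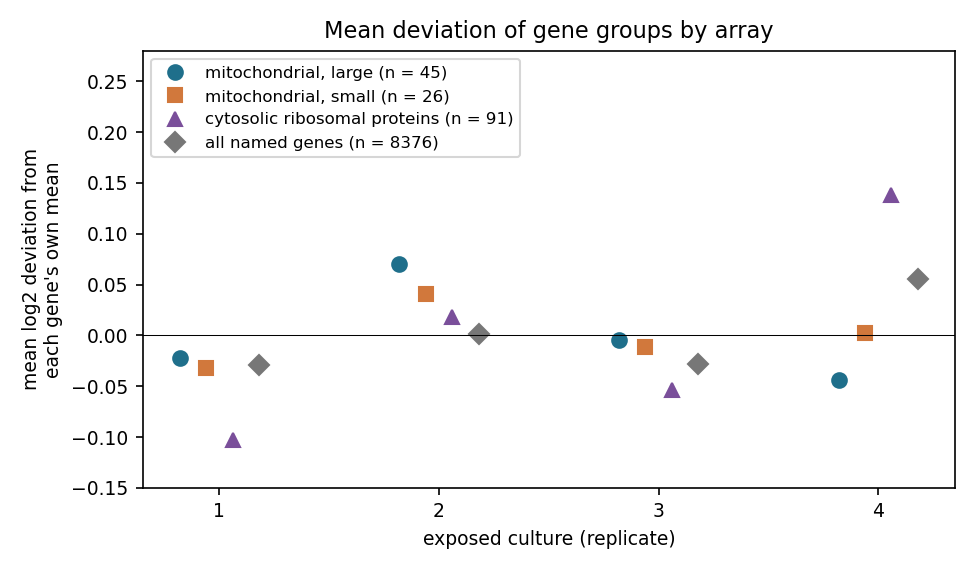
Mean log2 deviation of each gene group from its genes' own means in the 4 exposed cultures, for large and small subunit genes of the mitochondrial ribosome, cytosolic ribosomal protein genes and all named genes above background. In replicate 4 the large subunit lies at -0.0435, the small subunit at 0.0027 and the cytosolic group at 0.138.

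**Figure D4:**
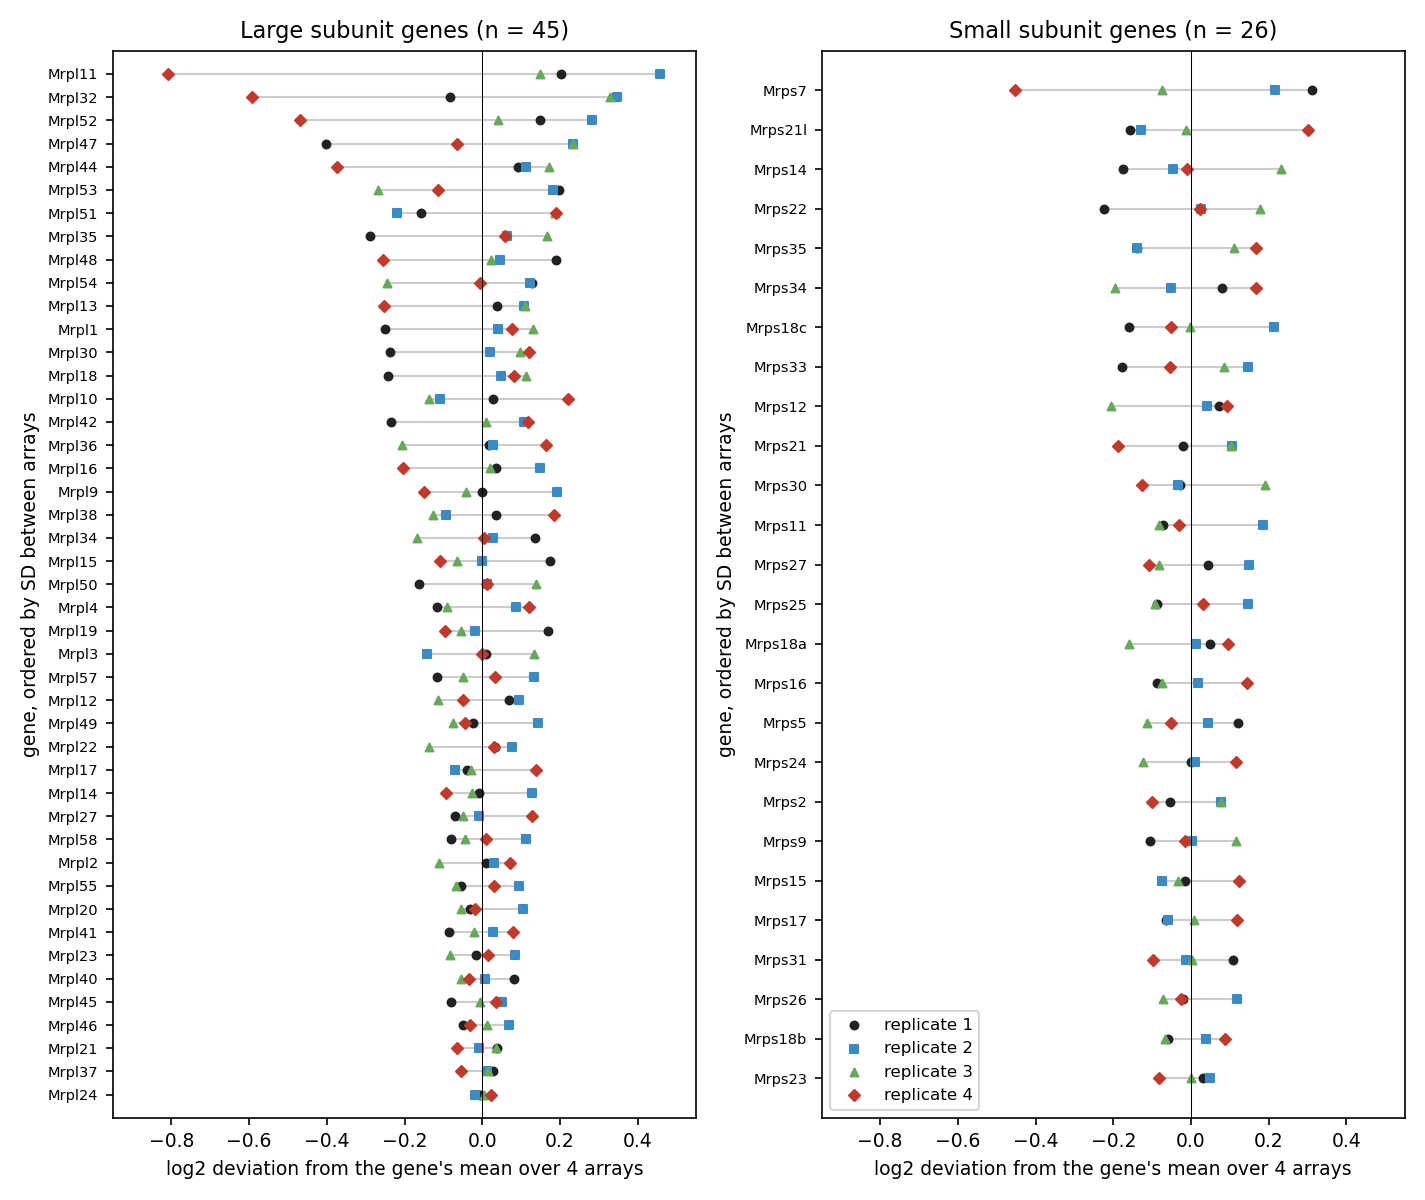
Log2 deviation of each of the 45 large subunit (left) and 26 small subunit genes (right) from its own mean in replicates 1 to 4, ordered by SD between arrays; grey lines join the lowest and the highest culture. In 65 of the 71 genes the line is shorter than 0.5 log2 units. The median range is 0.267 for the members and 0.396 for all named genes above background, so most of all genes also range over less than 0.5 units. Mrpl11, Mrpl32, Mrpl52, Mrpl44 and Mrps7 have replicate 4 farthest to the left.

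Probes of the same gene gave different levels but mostly the same lowest culture. Of 14 members with more than 1 probe, 11 had at least 2 probes above background on all 4 arrays. Mrpl41, Mrpl1 and Mrps11 had probes within 0.09 log2 units of each other in mean signal. The 2 probes of Mrpl17 differed by 5.42 log2 units in mean signal, yet their deviations by array differed by at most 0.0167 units. This was the smallest such difference among the 11 genes. The 3 probes of Mrpl40 spanned 6.73 units, from -3.81 to 2.92, and the 2 probes of Mrps21 spanned 6.39 units. Their deviations by array differed by up to 0.341 units in Mrpl40 and 0.357 in Mrps21, the largest of the 11. The spread could differ as well: the chosen probe of Mrpl24 had an SD of 0.0176, and its other probe, at 0.62, 0.83, 0.82 and 0.63, an SD of 0.116. In 8 of the 11 genes all such probes had the same lowest culture, and in 6 the same highest one.

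In 4 members a further probe was not above background on all 4 arrays. One of 2 probes of Mrpl15 and 2 of 5 probes of Mrpl30 were above it on no array, as was 1 of 2 probes of Mrps35, and 1 of 2 probes of Mrpl47 was above it on 1 array. Because of such differences no level of one gene was set against that of another. Mrps21 also has a near copy, Mrps21l, whose only probe was at -0.03, 0.00, 0.11 and 0.43, highest in replicate 4, whereas Mrps21 was at 2.07, 2.20, 2.20 and 1.91, lowest there. The RefSeq table holds 40 pseudogenes with symbols of this family, and none was matched to a probe, so signal shared between a gene and its copies cannot be told apart here.

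**Figure D5:**
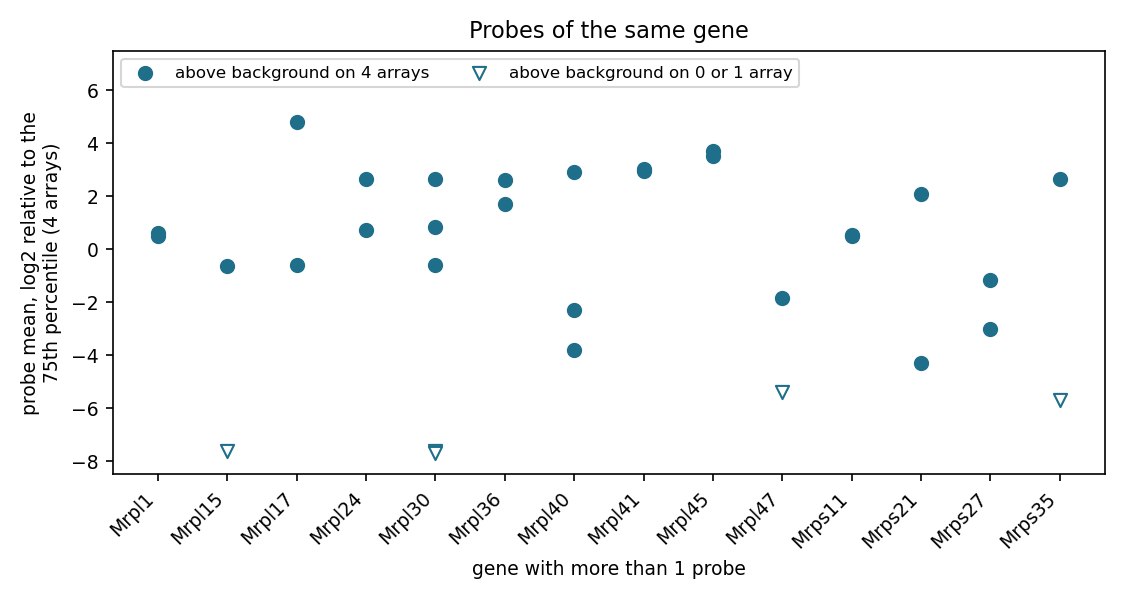
Mean signal over the 4 arrays (log2 relative to the 75th percentile) of every probe of the 14 members with more than 1 probe; filled circles were above background on 4 arrays and open triangles on 0 or 1. The probes of Mrpl41 coincide, while those of Mrpl40 span 6.73 units.

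The other proteins of the mitochondrial ribosome and its supporting factors were above background in most cases. The subunits that carry other symbols were above background on all 4 arrays in 5 of 5 genes, where 50.5% of all named genes were. Dap3, a GTP-binding protein of the small subunit first described in cell death, was at 0.36, 0.59, 0.54 and 0.60. Ptcd3, a pentatricopeptide repeat protein of the small subunit, was at 0.64, 0.82, 1.12 and 1.07, and Chchd1 at 2.49, 2.83, 2.90 and 2.94. Dap3, Ptcd3 and Chchd1 were each lowest in replicate 1. Aurkaip1 was at 4.25, 4.23, 4.11 and 4.17 and Gadd45gip1, of the large subunit, at 2.96, 3.04, 2.90 and 3.04, both lowest in replicate 3.

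Of 22 measured factors for assembly and ribosomal RNA modification, 21 were above background on all 4 arrays, where 50.5% of all named genes were. Mrm1, a methyltransferase for mitochondrial ribosomal RNA, was above background on 3. Of 15 translation factors 14 were, the exception being Slirp, an RNA-binding partner of Lrpprc, which was above background on no array. Of 10 genes of mitochondrial DNA upkeep and transcription 9 were, and Mterf2 was not on any array. Of 9 nuclear regulators 8 were, including Nrf1, Gabpa and Yy1, whose sites were searched above, and the coactivator gene Ppargc1a was above background on no array. In these 4 lists, 52 genes were above background on all 4 arrays. None of them passed limma's test of excess spread, where 0.191% of all genes did. In that test 1 of them had an unadjusted p under 0.05, where 5.75% of all genes did. This was Tefm, an elongation factor of mitochondrial transcription, at -3.23, -2.76, -2.84 and -3.86 (limma adjusted p 0.826), named after its values were seen. A gene called below background may still be transcribed at a level these probes did not resolve.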

How the data were processed

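Cy3-labelled RNA of each exposed culture was read on an Agilent rat array, per the labels' protocols. The authors made the processed signal intensity with Feature Extraction (version 11.0.1.1, from the submitters' processing notes). It is background-subtracted and detrended array by array and not scaled across arrays, per the file headers. The deposited files also flag spots as well above background, positive and significant, or outliers. Whether the authors normalized across arrays was not stated in the sources used here.

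Control spots and outlier spots were left out (outlier spots stayed where all spots of a probe were marked), the log2 of each array's 75th percentile was subtracted from its log2 signals, and repeat spots were averaged. A probe was above background on an array when most of its spots were. Accessions were matched without version to the RefSeq table of GRCr8, which named 21109 of 45598 probes. Each gene is represented by its probe with the most arrays above background, then the highest mean. With limma 3.58.1 (R 4.3.3), each gene's variance over 4 arrays was divided by a robust prior variance that follows signal level, with 9.16 prior degrees of freedom, and tested by F (upper tail), with Benjamini-Hochberg adjustment over 8376 genes. The test was tried on simulated data first, and it missed some of the genes given a larger SD. Not passing therefore does not show that a gene's spread is like that of other genes. The number of arrays limits the precision.

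The members, gene lists and tests were chosen with earlier results of these data known. The text names, for members, those of lowest and highest p, those whose probes disagree, examples fixed by role and those with an array apart, and, for other lists, genes not above background and ribosomal subunits under other symbols. Nrf1, Gabpa, Yy1 and Tefm, Mrpl9 and Eme1, the motifs, the printed promoters, the neighbours and the cytosolic group were added after values were seen. The planned normexp correction was run on the median spot intensity, because the files hold no mean spot intensity. Alternatives were scaling, background correction, flags, probe choice, prior and leaving out each array.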

Additional observations from a re-analysis of the deposited data

Results flagged for a closer look

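Each set of 4 values was examined for an array whose gap to the nearest other array took most of the range (Dixon's ratio), which chance gives for about 1 in 20 sets and which 5.87% of all 8376 named genes showed. Of 71 members 2 had such an array. Mrpl44 had a ratio of 0.855, with replicate 4 at 1.79 below 2.26, 2.28 and 2.34. Mrps12 had a ratio of 0.830, with replicate 3 at 2.54 below 2.82, 2.79 and 2.84. Among the factors outside the member list, the helicase gene Ddx28 had a ratio of 0.871, with replicate 1 at -1.33 above -1.60, -1.59 and -1.63, and the assembly factor gene Rcc1l had 0.868, with replicate 3 at 0.63 below 0.76, 0.77 and 0.78. In all, 4 of 132 sets had an array apart.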

How the results depend on the processing

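All 71 members stayed above background with the positive-and-significant flag, on at least 1 array, with outlier spots kept and without each replicate; counted by probe the number was 84. The count of members past the excess spread threshold stayed at 0 under every alternative but normexp, where it was 3. The median SD of small subunit genes rose from 0.116 to 0.128 with outlier spots kept and lay between 0.104 and 0.121 without 1 replicate; changes were set against the jackknife error. The mean deviations in replicates 3 and 4 moved by more than their own SD over arrays with some scalings, and those in replicate 4 also with outlier spots kept, whereas those in replicates 1 and 2 moved by less under every alternative. In replicate 4 they were, for all, large and small subunit members, -0.089, -0.106 and -0.059 with outlier spots kept, -0.091, -0.110 and -0.059 with quantile normalization, and -0.102, -0.120 and -0.070 with cyclic loess; with the percentile over probes above background they were -0.074 for all and -0.045 for small subunit members. In replicate 3 they were 0.050, 0.052 and 0.046 with that percentile, 0.045, 0.049 and 0.037 with quantile normalization, and 0.042, 0.048 and 0.032 with cyclic loess. The cause of these shifts was not tested. The large minus small difference in replicate 4 was -0.079 with normexp. Members with an unadjusted p under 0.05 in limma's test numbered 3, between 0 without replicate 4 and 6 with normexp. The number of all genes past the threshold was 16, 5 with a constant prior, 10 with a prior that was not robust, 25 with outlier spots kept and 7 without replicate 2. No paired analysis was possible because there is 1 group of samples.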
